A study of Arabidopsis thaliana with 8 samples.

Results

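Membrane transporters move ions, metals, sugars, nitrogen compounds and water across cell membranes, and in a developing silique they supply the embryo and endosperm, which have no symplastic link to the maternal tissue. Cation/H+ exchangers of the CHX family move potassium and other monovalent cations against protons, largely in endomembranes, and many CHX genes are known from pollen. Purine permeases (PUP) include carriers of adenine and cytokinins, and ZIP proteins take up zinc and related metals. The genes described here were chosen by name alone: every probe whose gene symbol begins with ABCA to ABCI, AAP, NRT, PIP, TIP, NIP, STP, SUC, CHX, ACA, AHA, HAK, KUP, PUP, OPT, YSL, CAX or ZIP and goes on with a digit. This gave 13 probes for 13 genes among 26912 probes on the array, of which 14539 carried a gene symbol. The rule uses no measured value, although the families in it were listed with earlier results of these data known.

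All RNA came from *Arabidopsis thaliana* siliques, the seed pods, at an early stage of 2 to 5 days after pollination (DAP) and a late stage of 6 to 10 DAP. The late RNA was mixed as 90% late with 10% early (90%-late), so that even a gene found only in early siliques could not exceed an early over 90%-late ratio of 10-fold. Neither sample had any treatment or transgene, and the labels name no ecotype. The same pair of RNA samples served all 8 hybridizations, 2 for each of 4 ways of preparing target. The regimes were labelling without amplification from 30 µg (unamplified), 1 round of in vitro transcription from 5 µg (IVT), 2 rounds from 50 ng (2IVT), and 20 cycles of PCR from 50 ng (PCR). Cy5 always marked the early sample and Cy3 the 90%-late sample, which means that stage and dye cannot be told apart. Both slides of an amplified regime shared a preparation of the 90%-late sample, and the slides of a regime carry consecutive numbers, so regime and slide batch cannot be told apart either. The spread between both hybridizations of a regime, and every p-value below, therefore measures technical variation and not variation between plants. In an amplified regime it also leaves out variation between amplifications of the 90%-late sample, since both slides shared that preparation. An effect of a regime thus cannot be told apart from that of its single 90%-late amplification.

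Each value is a log2 ratio of early over 90%-late, so a positive value means higher in early and a negative value higher in 90%-late siliques. This direction is the likely one and was not stated with the values. It rests on the dyes and on the asymmetry that the 10% of early material predicts: in the unamplified means 202 probes lay beyond 10-fold (3.32 on the log2 scale) towards 90%-late and 1 towards early. Genes of seed storage proteins and oil bodies, markers of seed maturation, were higher in 90%-late in every regime where they were tested, 4 of 4 in the unamplified, IVT and 2IVT regimes and 3 of 3 after PCR. Seed coat flavonoid genes were higher in early for 3 of 3 without amplification, 2 of 3 after IVT and 1 of 3 after 2IVT and PCR. The green tissue gene LHB1B2 was higher in early in the unamplified (0.33) and IVT (0.50) means and stood at -0.14 after 2IVT and -0.24 after PCR, neither called. Of the endosperm genes, RR21 was higher in 90%-late in the unamplified and IVT means (-1.86 and -2.47), and PHE1 was higher in early after IVT (0.59) and 2IVT (0.47). How far these tissues change with stage in whole siliques, and their part in the transporter ratios, were not tested. In such bulk samples a smaller number of cells of a type and less RNA per cell cannot be told apart.

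The 13 genes fell into 4 of the 18 families in the rule: CHX with 7, PUP with 3, ZIP with 2 and NRT with 1. The other 14 families, among them the ABC transporters, the aquaporins and the amino acid permeases, had no probe matched to a symbol of theirs and were not analysed here. Of 304 genes in the RefSeq annotation (TAIR10.1) whose symbol fits the rule, these 13 had a matched probe. SUC5, a sucrose carrier of the endosperm that the study names, was among those without one. The study reports an array value for SUC5 in microdissected endosperm, so a missing match need not mean that the slides lack a probe. NRT2.5 (AT1G12940), a high-affinity nitrate transporter known from nitrogen starvation, had a probe but no value on any of the 8 hybridizations, as did 6.81% of all probes. Of the other 12 genes, 8 had all 8 values. Those with gaps were PUP18, CHX21, CHX23 and chx28. In all, 91 values were available, 64 of them below 0 and 27 above.

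Without amplification and after PCR, the median size of the transporter ratios was smaller than that of all genes and probes. After IVT and 2IVT both were close in size. The transporter genes that passed the test were mostly higher in 90%-late siliques. PUP18 and ZIP9 had the lowest means, and CHX19 was the only member that passed as higher in early siliques in any regime. Each regime mean was tested against 0 in limma with Benjamini-Hochberg adjustment over all genes and probes, and a gene is called where its adjusted p was under 0.05. Over the regimes 8 of 12 genes were called at least 1 time, beside 75.5% of all genes and probes tested. In 2 or more regimes 4 were called, beside 50.6% of all. None was called in all 4 regimes, beside 10.6%, and none in opposite directions, beside 4.77%. No regime mean reached 2-fold, and of the 91 single values 1 did, that of PUP18 on the first unamplified hybridization.

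**Figure D1:**
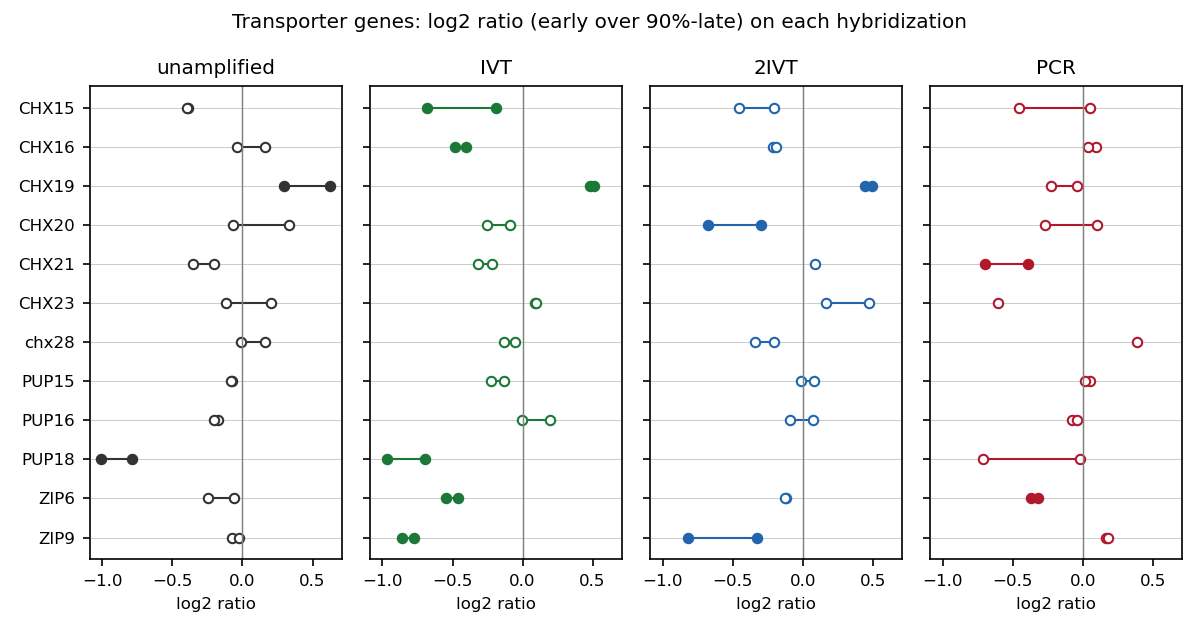
Log2 ratio of early over 90%-late (horizontal axis) for the 12 transporter genes with values, 1 panel per regime. Each point is a hybridization, a line joins both hybridizations of a regime, and filled points mark genes called in that regime (limma, adjusted p under 0.05). CHX19 lies to the right of 0 in 3 panels and to the left after PCR, and PUP18 and ZIP6 lie to the left in every panel where they have values.

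PUP18 (AT1G57990), a purine permease, had the lowest unamplified ratio of the members. It stood at -1.01 and -0.79 without amplification and at -0.97 and -0.69 after IVT. Both means were called higher in 90%-late, at -0.90 ± 0.16 (SD, n = 2, 1.86-fold, adjusted p = 0.00143) and -0.83 ± 0.19 (SD, n = 2, 1.78-fold, adjusted p = 0.0016). Of all genes and probes tested, 6.99% had a lower value than PUP18 in the unamplified regime. After PCR the hybridizations parted, with -0.02 and -0.71, and the mean of -0.36 ± 0.49 (SD, n = 2) was not called (adjusted p = 0.115). It was called with the regimes fitted apart (adjusted p = 0.0489). The second PCR value was close to those of the other regimes and the first was close to 0. No value was available after 2IVT. All 6 values of PUP18 were below 0.

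The other purine permeases, PUP15 (AT1G75470) and PUP16 (AT1G09860), were called in no regime. PUP15 ran from -0.23 to 0.08 over the 8 hybridizations, with a median of -0.04. PUP16 ran from -0.20 to 0.20, with a median of -0.06. The regime mean farthest from 0, that of PUP16 without amplification, had a 95% confidence interval from -0.42 to 0.05. In the unamplified and IVT regimes every value of PUP15 and PUP16 lay above those of PUP18.

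ZIP9 (AT4G33020) belongs to the zinc transporters that plants raise under zinc deficiency. Its ratio differed between regimes. Without amplification it was near 0, at -0.08 and -0.03. After IVT it stood at -0.86 and -0.78, a mean of -0.82 ± 0.06 (SD, n = 2, 1.76-fold higher in 90%-late, adjusted p = 0.000229). After 2IVT it stood at -0.32 and -0.82, a mean of -0.57 ± 0.35 (SD, n = 2, 1.49-fold, adjusted p = 0.00316). These 4 values from in vitro transcription lay below both unamplified values. Without the second 2IVT hybridization the 2IVT value was -0.32 and was not called (adjusted p = 0.0768). After PCR both values were above 0, at 0.17 and 0.18, and the mean of 0.17 ± 0.01 (SD, n = 2) was not called (adjusted p = 0.316).

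ZIP6 (AT2G30080), a related metal transporter that responds less to zinc supply, was below 0 on all 8 hybridizations. It gave -0.24 and -0.06 without amplification and -0.12 and -0.13 after 2IVT, and neither mean was called. After IVT it gave -0.54 and -0.46, a mean of -0.50 ± 0.06 (SD, n = 2, 1.42-fold higher in 90%-late, adjusted p = 0.0017). After PCR it gave -0.37 and -0.32, a mean of -0.34 ± 0.03 (SD, n = 2, 1.27-fold, adjusted p = 0.0281). The IVT and PCR values lay below all 4 values of the other regimes. The PCR call was lost with the regimes fitted apart (adjusted p = 0.0631), without either IVT hybridization (0.0539) and without either PCR hybridization (0.143 and 0.106).

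CHX19 (AT3G17630) belongs to a group of exchangers known to act on potassium and pH in endomembranes. It was higher in early siliques in 3 regimes. Its values were 0.63 and 0.30 without amplification, 0.51 and 0.48 after IVT, and 0.50 and 0.45 after 2IVT. The means were 0.46 ± 0.23 (SD, n = 2, 1.38-fold, adjusted p = 0.00747), 0.49 ± 0.02 (SD, n = 2, 1.41-fold, adjusted p = 0.00379) and 0.47 ± 0.03 (SD, n = 2, 1.39-fold, adjusted p = 0.00595). After PCR both values were below 0, at -0.23 and -0.04, and the mean of -0.13 ± 0.13 (SD, n = 2) was not called (adjusted p = 0.408). The PCR values did not overlap with the 6 others. Leaving out the first unamplified hybridization, either IVT hybridization or the first 2IVT hybridization ended the call of the regime concerned (adjusted p = 0.194, 0.0621 and 0.0517, and 0.0563).

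CHX16 (AT1G64170), of the same group, gave -0.04 and 0.16 without amplification and 0.10 and 0.03 after PCR. It was called higher in 90%-late after IVT, at -0.41 and -0.49, with a mean of -0.45 ± 0.06 (SD, n = 2, 1.36-fold, adjusted p = 0.00393). After 2IVT both values were on the same side, at -0.21 and -0.19, and the mean was not called (adjusted p = 0.143). The IVT call was lost without the second IVT hybridization (adjusted p = 0.0843).

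CHX20 (AT3G53720), known for a role in guard cell osmoregulation, was called only after 2IVT. There it gave -0.68 and -0.30, a mean of -0.49 ± 0.27 (SD, n = 2, 1.40-fold higher in 90%-late, adjusted p = 0.0164). Its values were -0.07 and 0.33 without amplification, -0.09 and -0.25 with IVT, and 0.10 and -0.27 with PCR. Its unamplified and PCR values thus lay on both sides of 0. Without the first 2IVT hybridization the value after 2IVT was -0.30 and was not called (adjusted p = 0.26).

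CHX15 (AT2G13620) had the lowest unamplified ratio among the exchangers, with -0.39 on both hybridizations. The unamplified mean of -0.39 ± 0.0037 (SD, n = 2, 1.31-fold higher in 90%-late) missed the threshold (adjusted p = 0.0572) and passed it with median centring (0.0322), with the regimes fitted apart (0.0191) and without either PCR hybridization (0.0428). After IVT CHX15 gave -0.19 and -0.68, a mean of -0.43 ± 0.35 (SD, n = 2, 1.35-fold, adjusted p = 0.0314). That call was lost after quantile normalization (adjusted p = 0.112) and without the second IVT hybridization, where the value was -0.19 (adjusted p = 0.521). It gave -0.20 and -0.45 after 2IVT and 0.05 and -0.46 after PCR. Of its 8 values 7 were below 0, and the widest gap between both hybridizations was the PCR one.

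CHX21 (AT2G31910) and CHX23 (AT1G05580) are close relatives known to act together in the guidance of pollen tubes to ovules. CHX21 gave -0.21 and -0.35 in the unamplified regime, -0.22 and -0.32 in the IVT regime, and 0.08 on the only 2IVT hybridization with a value. In the PCR regime it gave -0.39 and -0.70, a mean of -0.55 ± 0.22 (SD, n = 2, 1.46-fold higher in 90%-late, adjusted p = 0.00715), and of all genes and probes 7.57% had a lower value there. This call was lost without the second PCR hybridization (adjusted p = 0.109). CHX21 was below 0 on every hybridization but that of 2IVT.

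CHX23 was called in no regime. It gave 0.20 and -0.11 without amplification, 0.09 and 0.10 after IVT, 0.47 and 0.17 after 2IVT, and -0.60 on the only PCR hybridization with a value. The PCR value was the lowest of the 7 and the 2IVT values were on the early side. The 2IVT mean of 0.32 ± 0.21 (SD, n = 2) did not pass (adjusted p = 0.0601).

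chx28 (AT3G52080), the last of the exchangers, was called in no regime either. Its 7 values ran from -0.34 after 2IVT to 0.38 on the only PCR hybridization with a value, with a median of -0.05. Its 2IVT mean of -0.27 ± 0.10 (SD, n = 2) was the farthest from 0 of its regime means (adjusted p = 0.0677).

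By regime, calls towards 90%-late were the more numerous after IVT, 2IVT and PCR. Without amplification 2 of 12 were called, 1 higher in early and 1 in 90%-late, where 43.7% of all genes and probes were called, 26% early and 17.7% late. After IVT 6 of 12 were called, 1 early and 5 late, beside 54.6% of all, 32% early and 22.6% late. After 2IVT 3 of 10 were called, 1 early and 2 late, beside 47.1% of all, 26.2% early and 20.9% late. After PCR 2 of 10 were called, both late, beside 31.5% of all, 16.4% early and 15.1% late. With so few genes these shares describe the members and were not tested against the background. With a further demand for a 2-fold mean no member was called, where 10.5% of all genes and probes passed without amplification, 17.2% after IVT, 12.5% after 2IVT and 3.48% after PCR.

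The ratios were also compared in size. The median distance from 0 of the members' means was 0.14 without amplification against 0.29 for all genes and probes, 0.35 against 0.38 after IVT, 0.30 against 0.31 after 2IVT and 0.15 against 0.24 after PCR. The signed medians of the members were on the 90%-late side in every regime, at -0.06, -0.22, -0.16 and -0.11 in the same order, where those of all genes and probes were 0.07, 0.08, 0.04 and 0.01. By family, the CHX median was 0.06 without amplification and -0.17, -0.24 and -0.13 after IVT, 2IVT and PCR. The ZIP median was -0.10, -0.66, -0.35 and -0.09, and the PUP median -0.19, -0.18, 0.01 and -0.06. The families hold 7, 3 and 2 genes with values, so a median of PUP or ZIP rests on very few genes. The genes behind a median also differ between regimes. After 2IVT the PUP median rests on 2 genes, without PUP18, and the CHX median rests on 6 genes after 2IVT and 5 after PCR.

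**Figure D2:**
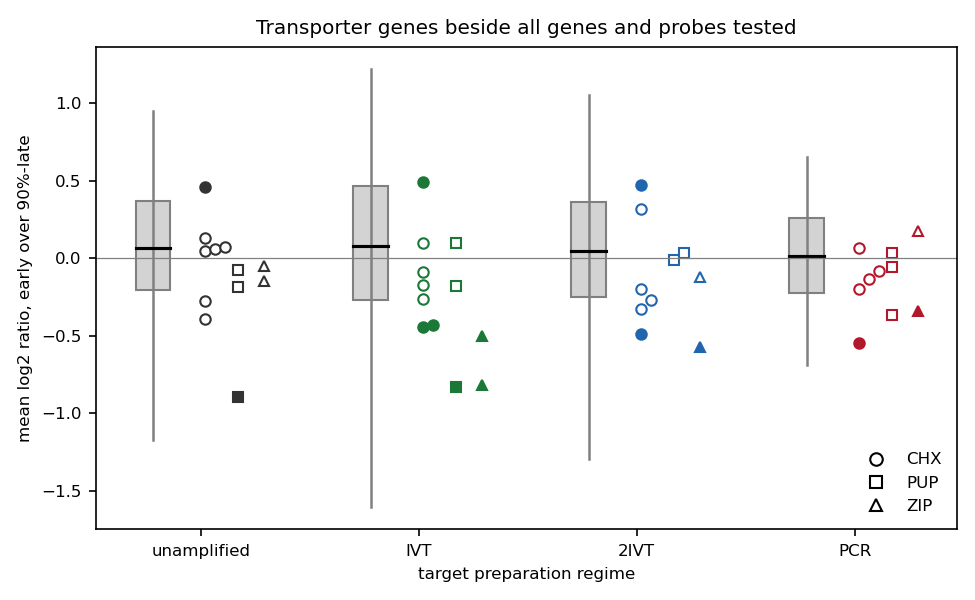
Mean log2 ratio of early over 90%-late (vertical axis) in each regime. Grey boxes give the middle 50% of all genes and probes tested, with the median as a black line and a grey line from the 5th to the 95th percentile, and the points are the transporter genes by family, filled where called and set side by side where they would overlap. Most members lie within or close to the boxes, and PUP18 in the unamplified regime and PUP18 and ZIP9 after IVT are the lowest points.

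The study was made to ask how amplification alters such ratios, so each amplified regime was set against the unamplified one. Of the members 3 changed in 1 such comparison, all towards 90%-late. After IVT 2 of 12 changed, beside 17.2% of all genes and probes (9.1% towards early and 8.09% towards late). After 2IVT 0 of 10 passed in limma, beside 17% of all (8.81% and 8.21%), with 2 at an unadjusted p under 0.05. After PCR 1 of 10 changed, beside 20.9% of all (9.8% and 11.1%). All 3 comparisons share the unamplified hybridizations.

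ZIP9 showed the widest of these differences. Its ratio after IVT was lower than without amplification by -0.77 (SE 0.18, 95% CI -1.16 to -0.37, adjusted p = 0.0132). After 2IVT the difference was -0.52 (SE 0.18, adjusted p = 0.0687), with values from -0.77 to -0.27 over all alternatives (listed under the processing). After PCR it was 0.23 (SE 0.18, adjusted p = 0.411). Both IVT values and both 2IVT values thus lay below the unamplified ones and both PCR values above them. The IVT difference did not pass after any of the 4 hybridizations in it was left out (adjusted p from 0.0668 to 0.0967) or after quantile normalization (-0.58, adjusted p = 0.0989).

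CHX16 was lower after IVT than without amplification by -0.51 (SE 0.15, 95% CI -0.83 to -0.18, adjusted p = 0.039). After 2IVT the difference was -0.26 (adjusted p = 0.258) and after PCR 0.0048 (95% CI -0.32 to 0.33). The IVT difference did not pass without any 1 of its 4 hybridizations (adjusted p from 0.0769 to 0.232) or after quantile normalization (-0.43, adjusted p = 0.118).

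CHX19 was lower after PCR than without amplification by -0.59 (SE 0.16, 95% CI -0.95 to -0.24, adjusted p = 0.0254), and its differences after IVT and 2IVT were 0.03 and 0.01, with 95% confidence intervals from -0.33 to 0.39 and from -0.35 to 0.37. The PCR difference did not pass without the first unamplified hybridization (-0.43, adjusted p = 0.19) or the first PCR hybridization (-0.50, adjusted p = 0.117).

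Some further members came near the threshold. CHX20 was at -0.62 for 2IVT minus unamplified (SE 0.20, adjusted p = 0.0606), with values from -0.82 to -0.42 over all alternatives. ZIP6 was at -0.35 for IVT minus unamplified (SE 0.15, adjusted p = 0.126). PUP18 was at 0.53 for PCR minus unamplified (SE 0.23, adjusted p = 0.133), with values from 0.19 to 0.88 over all alternatives. For CHX15, CHX21, CHX23, chx28, PUP15 and PUP16 no difference passed, and the standard errors of 0.14 to 0.23 over all members leave room for undetected differences.

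Over the 12 members the slope of the IVT means on the unamplified means, fitted through 0, was 0.952, with the same sign in 8 genes. It was 0.675 over 10 members after 2IVT (6 of the same sign) and 0.404 over 10 members after PCR (6 of the same sign). Over all genes and probes the slopes were 0.921, 0.645 and 0.329. The order of the regimes was the same, but among the members it rested on PUP18 and CHX19. Pearson r over the members was 0.68, 0.45 and 0.48 for IVT, 2IVT and PCR, beside 0.80, 0.72 and 0.59 over all genes and probes. The slopes are a description with no test, since the points share the unamplified hybridizations. PUP18 and CHX19 have the largest unamplified means. Without both, the slope was 0.942 for IVT, 0.864 for PCR and 0.377 for 2IVT, where only CHX19 of the pair had values. Pearson r without both was 0.19 for IVT, 0.57 for PCR and -0.02 for 2IVT. The IVT and 2IVT ratios of the remaining members thus had little relation to their unamplified ratios, whatever the slope.

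**Figure D3:**
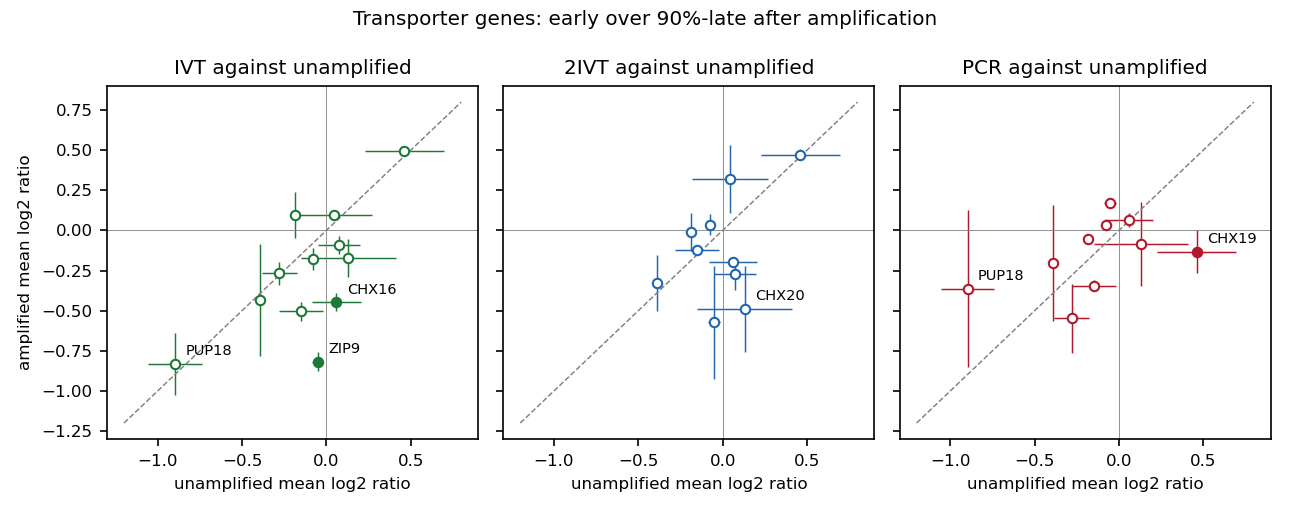
Mean log2 ratio of the transporter genes in each amplified regime (vertical axis) against the unamplified mean (horizontal axis), with bars of 1 SD over both hybridizations and the line of equal values dashed. Filled points differ from unamplified (limma, adjusted p under 0.05): ZIP9 and CHX16 lie below the line after IVT, and CHX19 lies below it after PCR.

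Other membrane transport genes, taken from a list of symbol patterns outside the rule, were measured on the same slides. Of 35 such genes 33 had a value. Without amplification 5 of 28 were called higher in early and 5 in 90%-late, after IVT 10 and 10 of 33, after 2IVT 6 and 8 of 29, and after PCR 3 and 5 of 26. In all, 35.7%, 60.6%, 48.3% and 30.8% were called, beside 43.7%, 54.6%, 47.1% and 31.5% of all genes and probes. Some of them moved far more than any member. SWEET11, a sucrose exporter known to feed the embryo during seed filling, was at -3.98 ± 0.22 (SD, n = 2) without amplification, the lowest mean on this list in that regime, and at -2.16, -0.32 and -1.85 after IVT, 2IVT and PCR. The 2IVT mean of SWEET11 alone was not called (adjusted p = 0.14), and its differences from unamplified passed in all 3 regimes. SWEET13, also a sucrose exporter, was at -2.26, -3.40 and -2.62 in the unamplified, IVT and 2IVT regimes and at 0.27 on the only PCR hybridization with a value. SWEET10, of the same family, was at -1.25, -1.45 and -1.17 there and at -0.10 after PCR (adjusted p = 0.582). SWEET8, known from the pollen wall, was higher in early, at 0.81, 0.55 and 0.53, and at 0.08 after PCR (adjusted p = 0.593).

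Like ZIP9 and CHX19 among the members, some of these sugar carriers differed between regimes. TMT3, one of the tonoplast monosaccharide transporters, was called in opposite directions, at 1.47 after IVT and 1.29 after 2IVT and at -0.54 after PCR, with 0.26 and no call without amplification. Its relative TMT2 was called higher in 90%-late in 3 regimes, at -0.49, -0.81 and -0.85, and stood at -0.17 after PCR, and none of its differences from unamplified passed (adjusted p from 0.218 to 0.279). SWEET6 was at 0.11 without amplification and was called at -0.68 after IVT and -1.38 after 2IVT.

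**Figure D4:**
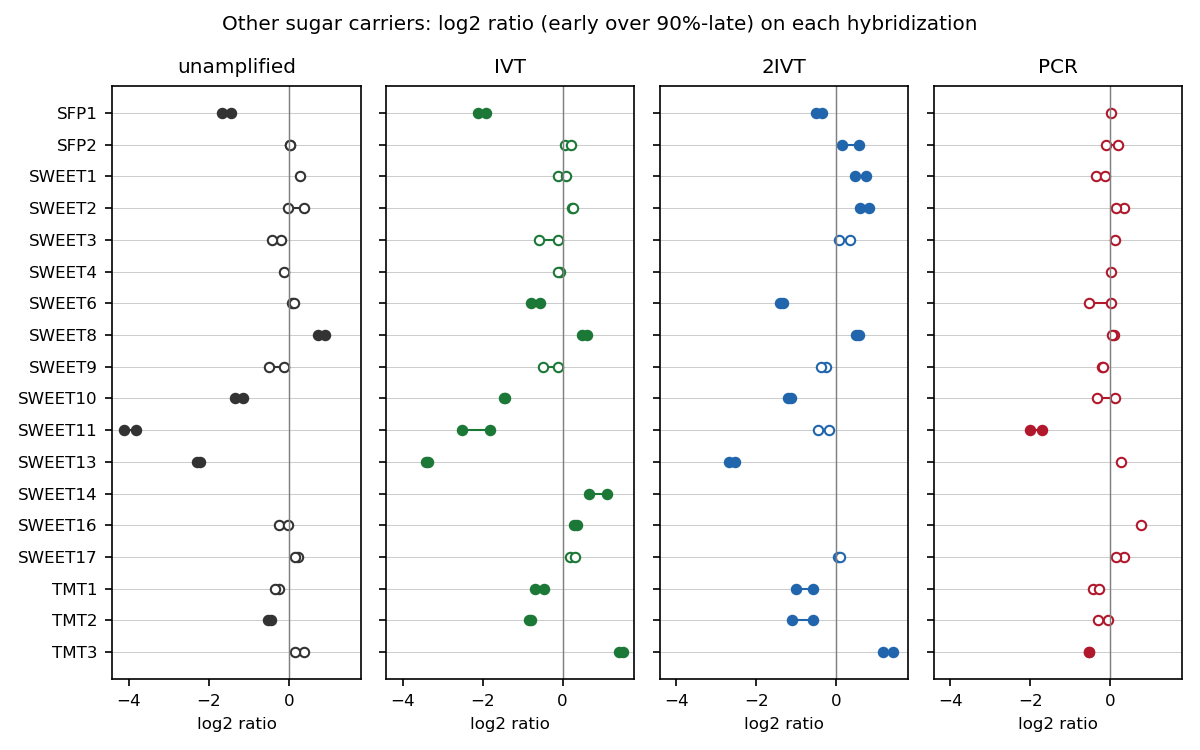
Log2 ratio of early over 90%-late (horizontal axis) for the SWEET, TMT and SFP sugar carriers with values, 1 panel per regime, drawn as for the transporter genes. SWEET11 lies near -4 without amplification and near -0.3 after 2IVT, and TMT3 lies right of 0 after IVT and 2IVT and left of 0 after PCR.

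With NRT2.5 unmeasured, the NRT1/PTR family (NPF), found through RefSeq synonyms, was looked at as well. It includes carriers of abscisic acid and glucosinolates, so its ratios do not stand for nitrate transport. All 12 genes of it on the array with a match had values in every regime. Without amplification 2 were called higher in early and 4 in 90%-late. Both IVT and 2IVT gave 3 early and 5 late, and PCR gave 2 early and 3 late. These are 50% without amplification, 66.7% after both IVT and 2IVT and 41.7% after PCR, beside 43.7%, 54.6%, 47.1% and 31.5% of all genes and probes for unamplified, IVT, 2IVT and PCR. NPF4.5 (AT1G27040) and NPF4.1 (AT3G25260), which can import abscisic acid, were called higher in 90%-late in all 4 regimes. NPF4.5 stood at -1.97, -3.24, -2.62 and -1.39 in the order unamplified, IVT, 2IVT and PCR. NPF4.1 (AT3G25260) stood at -2.08, -1.77, -1.52 and -1.31. GTR2, a glucosinolate transporter needed for glucosinolates in seeds, was at -0.99, -0.92, -0.85 and -0.94 and was called in each. NPF5.14 (AT1G72120) was higher in early, at 1.33, 1.11 and 1.46, with 0.31 in the PCR regime (adjusted p = 0.162). NPF4.3 (AT1G59740) was called higher in early in all 4 regimes, at 0.60, 0.45, 0.61 and 0.55. NPF3.1 (AT1G68570) was called in opposite directions, at -0.43 after 2IVT and 0.51 after PCR, and stood at 0.08 without amplification and 0.01 after IVT. NPF4.2 (AT3G25280) was called higher in 90%-late after IVT (-1.28) and 2IVT (-1.10) and stood at -0.14 without amplification and 0.04 after PCR. NAXT1 (NPF2.7) was called only after IVT, higher in early at 0.89, with single values of 0.38 and 1.40. NPF6.2 (AT2G26690) was called higher in 90%-late without amplification (-0.52) and after IVT (-0.35) only. NPF6.4 (AT3G21670) was called only after 2IVT, higher in early at 0.43.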

How the data were processed

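The authors scanned the long oligonucleotide slides with GenePix 4.1 and normalized them in S-PLUS with SNOMAD routines, by the global mean and by local means over slide surface and intensity. They deposited a single log2 ratio per probe and hybridization, whose scale and direction are inferred. Their methods describe discarding dim spots and replacing saturated ones for their own counts and correlations. It is not stated if this was also done to the values they deposited. Intensities were not used, so signal over background is unknown. Probes were named through the platform annotation and RefSeq (14228 loci) and averaged per gene, which left 26655 genes and unnamed probes, with no further normalization.

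Regime means and differences from unamplified were tested with limma 3.58.1 (lmFit, eBayes, prior degrees of freedom 6.64) in R 4.3.3 in a shared fit of all 8 hybridizations, adjusted by Benjamini-Hochberg and called under 0.05, where both hybridizations had a value. The fit was tested on simulated data. An exact permutation test of 2 against 2 hybridizations cannot go below 0.333 (two-sided). Summaries used Python 3.11.15 and pandas 2.3.3.

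Hybridization values are printed for members among the 5 highest or lowest called means of a regime, the 3 largest called differences in each direction, those called both ways or largest of their family without amplification, and for the other exchangers. Members and lists were chosen with earlier results of these data known, and the NPF list and slopes of single hybridization pairs were added later. No sequences were used. Alternatives were median centring, quantile normalization, a row per probe, genes with all 8 values, robust eBayes, a replicate block, separate fits, a 2-fold minimum, other slopes and leaving out each hybridization.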

Additional observations from a re-analysis of the deposited data

Results flagged for a closer look

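Each of these 3 results was taken up because the effect of stage differed between 2 regimes by the test of the difference itself. They are 2 of 12 members tested for IVT and 1 of 10 for PCR, beside 17.2% and 20.9% of all genes and probes. For 2IVT 0 of 10 passed, beside 17% of all. ZIP9 was lower after IVT than without amplification by -0.77 (adjusted p = 0.0132 in limma), with both IVT values below both unamplified values. CHX16 was lower after IVT by -0.51 (adjusted p = 0.039), again with no overlap. CHX19 was lower after PCR by -0.59 (adjusted p = 0.0254), and both PCR values were below 0 where both unamplified values were above it. The lack of overlap comes from the values that the test itself used and is no further support. All 3 share the unamplified hybridizations, and each lost its call when some single hybridizations were left out. Target preparation and slide batch cannot be told apart here.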

How the results depend on the processing

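With each hybridization centred on its median 4 members were called without amplification in place of 2 (1 early, 3 late), the IVT median of all members was -0.30 in place of -0.22 and that of CHX -0.25 in place of -0.17. With only genes that had all 8 values, 1 member was called without amplification and 1 after PCR, since PUP18 and CHX21 leave the table. With a 2-fold minimum 0 were called in the unamplified, IVT, 2IVT and PCR regimes. The IVT differences numbered 0 after quantile normalization and 1 with the replicate block, where CHX16 had an adjusted p of 0.057. Replicate numbers do not pair the hybridizations (correlations of deviations from -0.06 to 0.03), and the block gave 3 unamplified calls, CHX15 (adjusted p = 0.0287) among them. Left out in turn, hybridizations moved the counts of calls from 1 to 3 unamplified, 3 to 6 for IVT, 1 to 3 for 2IVT and 0 to 3 for PCR, and those of differences from 0 to 2 for IVT, 0 to 1 for 2IVT and 0 to 2 for PCR. The lowest counts of calls came without the first unamplified, second IVT, first 2IVT and second PCR hybridization. Those of IVT differences came without either unamplified or either IVT one, and those of PCR differences without the first unamplified or first PCR one. As a ratio of SDs the slope was 1.16 for IVT and 1.47 for 2IVT, and without PUP18 and CHX19 it was 0.864 for PCR. Over pairs of single hybridizations, added after seeing the data, the slope ran from 0.813 to 0.902 for IVT, from -0.12 to 0.795 for 2IVT and from 0.0421 to 0.827 for PCR. The causes of these changes were not tested.

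Single genes changed sign only where they were not called. Centring turned CHX16 unamplified to -0.0036, CHX23 unamplified to -0.0186, PUP15 after 2IVT to -0.0035 and the IVT difference of CHX21 to -0.0048. Quantile normalization turned PUP16 after 2IVT to 0.0041 and the IVT differences of CHX15 and CHX19 to 0.0827 and -0.0658. With hybridizations left out in turn, regime means ran over 0 for CHX15 after PCR (-0.46 to 0.0543), CHX16 unamplified (-0.0415 to 0.16), CHX20 unamplified (-0.0675 to 0.33) and after PCR (-0.27 to 0.10), CHX23 unamplified (-0.11 to 0.20), chx28 unamplified (-0.0123 to 0.16), PUP15 after 2IVT (-0.0108 to 0.0840), and PUP16 after IVT (-0.0048 to 0.20) and after 2IVT (-0.0935 to 0.0724). So did the IVT differences of CHX15 (-0.29 to 0.20), CHX19 (-0.13 to 0.20), CHX21 (-0.0611 to 0.0854), CHX23 (-0.11 to 0.21) and PUP18 (-0.0699 to 0.20), the 2IVT differences of CHX15 (-0.0590 to 0.19), CHX19 (-0.15 to 0.18) and ZIP6 (-0.0641 to 0.12), and the PCR differences of CHX15 (-0.0636 to 0.45) and CHX16 (-0.10 to 0.11). Of all alternatives for single genes 1015 kept direction and side of the threshold, 28 lost a call, 15 gained 1 and 30 changed sign. Many of the 1015 could not change direction. A row per probe, or leaving out a hybridization from outside the comparison, left the ratio itself as it was. Most also belong to ratios that were not called in the first place. The count therefore does not measure how firm the calls are. No member lacks transport in its annotation, so the alternative without such members was not run.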
